A study of Homo sapiens with 7 samples.

Results

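The mRNAs of 2 families of splicing regulators, the SR proteins and the hnRNPs, were measured in HCT116 cells, a human colorectal carcinoma line, with a DROSHA knockout, either given a control miRNA (3 libraries) or given miR-148a-3p (3 libraries). Both groups share the knockout, so both lack the endonuclease that frees microRNA hairpins from their primary transcripts, and the labels do not say whether the line is 1 clone. Libraries came from 500 ng of RNA collected at 48 h and started from oligo-dT, so each read marks a transcript's 3' end and counts do not scale with transcript length. The family members were the gene symbols SRSF followed by a number and HNRNP followed by letters and digits, without pseudogenes: 31 genes (11 SR proteins and 20 hnRNPs) of 15659 symbols with a read. SRSF12, HNRNPCL1 to HNRNPCL4, HNRNPA1L2 and HNRNPA1L3 carry such names in RefSeq and had no read in any library.

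SR proteins bind exonic enhancer sequences with an RNA recognition motif (RRM) and recruit the spliceosome through a tail rich in arginine-serine repeats, whose phosphorylation controls their activity and place in the nucleus. The hnRNPs coat nascent transcripts through RRM, KH or RGG domains and often oppose SR proteins at the same exons. Many genes of both families hold ultraconserved poison exons, through which the proteins lower their own mRNA by nonsense-mediated decay.

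The microRNA that separated the groups is shown first, since its seed, in capitals (bases 2 to 8), is what a target mRNA would pair with. Beside it stand mature microRNAs whose hairpins lie within or at the edge of members' own genes. These are miR-7-5p from MIR7-1 in HNRNPK and miR-4444 from MIR4444-1, whose hairpin overlaps the start of HNRNPA3. MIR636 overlaps SRSF2. Sequences are from RefSeq (GRCh38.p14), 5′ to 3′, and all 3 seeds differ. The first lies at chr7:25949922-25949943 on the minus strand, the second at chr9:83969811-83969834 on the minus strand and the third at chr2:177212768-177212785 on the plus strand.
miR-148a-3p: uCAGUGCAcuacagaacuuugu
miR-7-5p: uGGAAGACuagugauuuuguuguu
miR-4444: cUCGAGUUggaagaggcg

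The control libraries held 876131 to 1069154 counts and the miR-148a-3p libraries 630142 to 1564125. Reads were present for 6 of 8 colon epithelium markers (KRT20 and LGR5 had none), summing to 1149 to 1530 counts in control libraries and 729 to 1998 with miR-148a-3p. Blood markers summed to 0 to 8 and to 1 to 11 counts, with PTPRC, CD34, SPI1 and MPO at 0, and fibroblast and endothelial markers to 33 to 83 and 27 to 78, with COL1A2 at 0. Control replicate 1 was the lowest of the 6 libraries for 15 of the 31 members (48.4%), against 21.6% of all 8921 genes tested. Its part in the differences given below was not tested beyond leaving it out.

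All 31 members were expressed well enough to be tested, and the hnRNPs were the more abundant family. At baseline, in cells with the control miRNA, the 20 hnRNPs summed to 7743, 8311 and 8042 CPM (TMM-normalised counts per 1e6 reads) and the 11 SR proteins to 2358, 2456 and 2298 CPM. The hnRNP total was 3.39 ± 0.108 times the SR total (SD, n = 3). The median member stood at 289 CPM among the hnRNPs and 183 CPM among the SR proteins, against 44.8 CPM for all genes tested. Control libraries varied less for the median hnRNP (coefficient of variation 13.8%) than for the median SR protein (19.0%), and the figure was 22.5% over all genes tested and 15.1% over the 2168 genes at 100 CPM or more.

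One gene, SRSF11, held 27.4% of the SR total. SRSF11, an SR protein with 1 RRM that associates with U2AF (chromosome 1, 70205696 to 70253052), was counted at 784, 603 and 559 CPM at baseline and ranked 204 among all genes tested. Its lowest control library stood above the highest of SRSF3 (301 CPM), the next in order. SRSF3, the smallest SR protein, had 209, 292 and 301 CPM, and SRSF5 had 272, 229 and 237 CPM. SRSF6, which like SRSF5 carries 2 RRMs, had 194, 225 and 175 CPM. SRSF10, known as a splicing repressor when dephosphorylated, had 239, 166 and 173 CPM.

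From SRSF3 down to SRSF2 the order of the SR proteins was mostly within the spread of the libraries. Of 10 neighbouring pairs in the order of mean level, 7 had overlapping control ranges; the exceptions were SRSF11 over SRSF3, SRSF5 over SRSF6 (229 against 225 CPM, a gap of a few CPM) and SRSF2 over SRSF8. SRSF7, SRSF9, SRSF4, SRSF1 and SRSF2 had means of 183, 178, 154, 141 and 136 CPM in that order. SRSF2, whose gene is recurrently mutated in myeloid neoplasms, spread from 83.8 to 177 CPM. SRSF8, derived from a retrocopy of SRSF2, was the least abundant at 26.2 ± 7.19 CPM (SD, n = 3), from 16 to 29 reads a library.

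Among the hnRNPs, HNRNPC led with 1694, 1394 and 1349 CPM in the control libraries, 18.4% of the family. HNRNPC binds uridine tracts and keeps Alu-derived exons out of mRNAs (chromosome 14, 21209147 to 21269442). No control value of another hnRNP reached its lowest library, and it ranked 65 among all genes tested. Below it stood 4 genes at similar levels. HNRNPA1, a shuttling repressor of exon inclusion, had 822, 734 and 759.9 CPM. HNRNPA2B1, which also binds and sorts other RNAs, had 644, 776 and 722 CPM. HNRNPU, the scaffold attachment factor of chromatin, had 767, 672 and 688 CPM. HNRNPK, a KH-domain protein that binds cytidine-rich RNA, had 603, 782 and 721 CPM. The ranges of these 4 overlapped from each gene to the next, so their order was not resolved.

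The remaining 15 hnRNPs ran from HNRNPH1 at 526 ± 36.5 CPM to HNRNPLL at 21.5 ± 8.86 CPM (SD, n = 3). Of the 19 neighbouring pairs in the whole family, 15 overlapped. The ranges separated below HNRNPC, between HNRNPK and HNRNPH1, between HNRNPH3 and HNRNPH2, and above HNRNPLL. Some closely related genes differed widely and others did not. HNRNPH1 stood at 526 CPM against 82.5 CPM for HNRNPH2, and HNRNPL, which binds CA repeats, at 161 CPM against 21.5 CPM for HNRNPLL. By contrast, HNRNPA1 and HNRNPA2B1 had means of 772 and 714 CPM, and HNRNPD and HNRNPDL of 349 and 432 CPM. The plot of levels shows this order for both families.

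**Figure D1:**
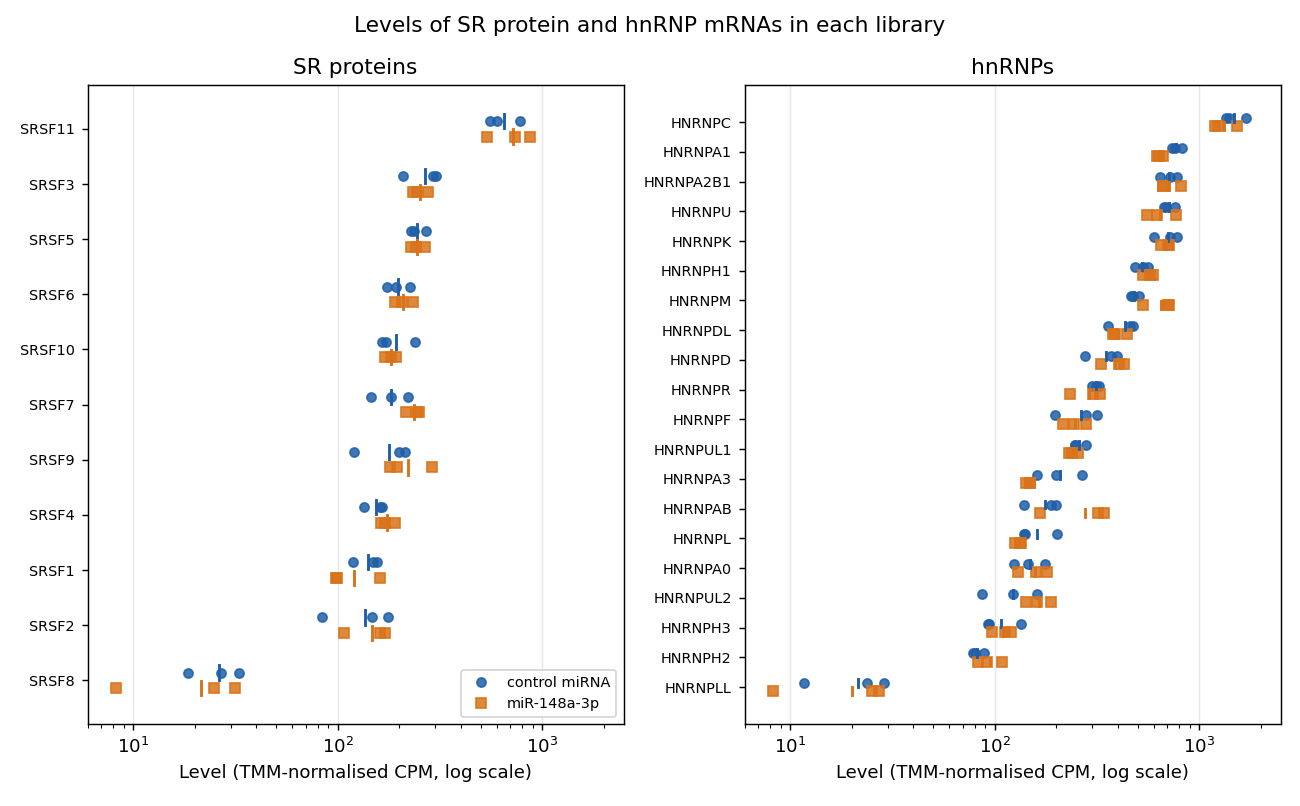
Level of each SR protein (left) and hnRNP (right) mRNA in each library, in TMM-normalised CPM on a log scale; circles are control libraries, squares miR-148a-3p libraries and short bars the group means (3 libraries each). SRSF11 and HNRNPC stand above the rest of their families, SRSF8 and HNRNPLL below, and for most genes the groups overlap.

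The genes are spread over the genome, with 3 close pairs. HNRNPD and HNRNPDL lie 48.6 kb apart on chromosome 4, HNRNPLL and SRSF7 lie 141 kb apart on chromosome 2, and HNRNPR and SRSF10 lie 620.1 kb apart on chromosome 1. In control cells the members of the second pair differed widely (21.5 and 183 CPM), and those of the first did not separate (349 ± 62.4 CPM for HNRNPD and 432 ± 62.9 CPM for HNRNPDL, SD, n = 3).

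Sequences upstream of the genes' starts differed in composition between the families. RefSeq promoters were at hand for 19 hnRNPs and 10 SR proteins (not for HNRNPA1 or SRSF2), and the 250 bases before the start were searched on both strands for CCAAT, for the GC box GGGCGG and for TATAAA, none of which contains another. CCAAT was present in 13 of 19 hnRNP promoters (68.4%) and in 2 of 10 SR promoters (20%), against 35.9% of 7473 promoters of genes with at least 60 reads. GGGCGG was present in 15 of 19 (78.9%) and 3 of 10 (30.0%), against 70.6%. TATAAA was present in 3 of 19 (15.8%) and 2 of 10 (20%), against 4.62%. Median GC content was 66.0%, 61.4% and 65.6%. These are descriptions of letters, with few promoters and no test.

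The upstream 250 bases of the most abundant genes with an entry, 2 from each family, are shown for where the motifs lie, and do not by themselves show the difference between families; capitals mark the 3 motifs, also where the match is on the opposite strand. HNRNPC (chr14:21269443-21269692, minus strand) has CCAAT 3 times, TATAAA once and GGGCGG once. HNRNPA2B1 (chr7:26200747-26200996, minus strand) has CCAAT once. SRSF11 (chr1:70221130-70221379, plus strand, before a start inside its RefSeq span) has TATAAA once. SRSF3 (chr6:36594112-36594361, plus strand) has CCAAT 2 times and TATAAA once, so it is one of the 2 SR promoters that hold CCAAT.
HNRNPC: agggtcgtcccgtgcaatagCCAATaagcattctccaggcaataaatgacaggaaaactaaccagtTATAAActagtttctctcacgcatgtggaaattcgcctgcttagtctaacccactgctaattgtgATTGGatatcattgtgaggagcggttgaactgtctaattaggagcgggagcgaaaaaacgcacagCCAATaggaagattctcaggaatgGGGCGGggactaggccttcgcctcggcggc
HNRNPA2B1: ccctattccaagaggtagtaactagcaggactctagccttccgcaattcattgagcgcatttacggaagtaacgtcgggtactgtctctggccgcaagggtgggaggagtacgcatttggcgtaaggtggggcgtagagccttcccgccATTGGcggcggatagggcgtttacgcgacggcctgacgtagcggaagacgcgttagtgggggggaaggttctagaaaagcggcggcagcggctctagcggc
SRSF11: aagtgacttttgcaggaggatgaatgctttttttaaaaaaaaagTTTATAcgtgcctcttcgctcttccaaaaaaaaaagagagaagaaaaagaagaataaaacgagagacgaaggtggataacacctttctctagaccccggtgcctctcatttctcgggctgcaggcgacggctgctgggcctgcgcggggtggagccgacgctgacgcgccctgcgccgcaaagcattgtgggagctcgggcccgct
SRSF3: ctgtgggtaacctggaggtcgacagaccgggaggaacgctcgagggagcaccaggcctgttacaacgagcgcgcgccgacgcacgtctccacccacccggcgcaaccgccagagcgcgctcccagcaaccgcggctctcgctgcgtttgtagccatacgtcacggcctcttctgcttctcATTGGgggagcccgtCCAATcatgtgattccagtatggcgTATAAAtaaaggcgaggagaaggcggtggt

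With miR-148a-3p, 0 of the 31 mRNAs passed the threshold (edgeR adjusted p below 0.05 over all 8921 genes tested, where 1 gene, or 0.0112%, passed). The smallest adjusted p of a member was 0.576. DESeq2 and limma-voom also called 0 members. Fitted values were above 0 for 6 of 11 SR proteins (median log2 fold change 0.08) and for 8 of 20 hnRNPs (median −0.03), against 49.5% of all genes tested (median −0.0039). The median size of the change, whatever its sign, was 0.15 for SR proteins and 0.12 for hnRNPs, against 0.23 for all genes tested and 0.17 for those at 100 CPM or more.

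For most members the data bounded the change within a doubling or halving, as they did for most genes at 100 CPM or more. The 95% interval of the log2 fold change lay within 1 of 0, that is within a doubling or halving, for 29 of 31 genes, and within 1.5-fold either way for 18. Over all genes tested these counts were 5411 and 1420 of 8921, and among genes at 100 CPM or more they were 2097 and 1114 of 2168. The exceptions were HNRNPAB, whose interval reached 1.10, and SRSF8, whose interval reached −1.04. An unadjusted p below 0.05 was reached with edgeR by 3 members, HNRNPAB and HNRNPM above and HNRNPA3 below. The share was 9.68% of the members, against 6.79% of all genes tested and 9.18% of those at 100 CPM or more. DESeq2 and limma-voom gave the same 3 genes an unadjusted p below 0.05. The edgeR count was 5 when control replicate 2 was left out, and 1 when control replicate 3 or either replicate 2 or replicate 3 of the miR-148a-3p group was. The share of all genes in those fits is not given here, so these counts have no background beside them.

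**Figure D2:**
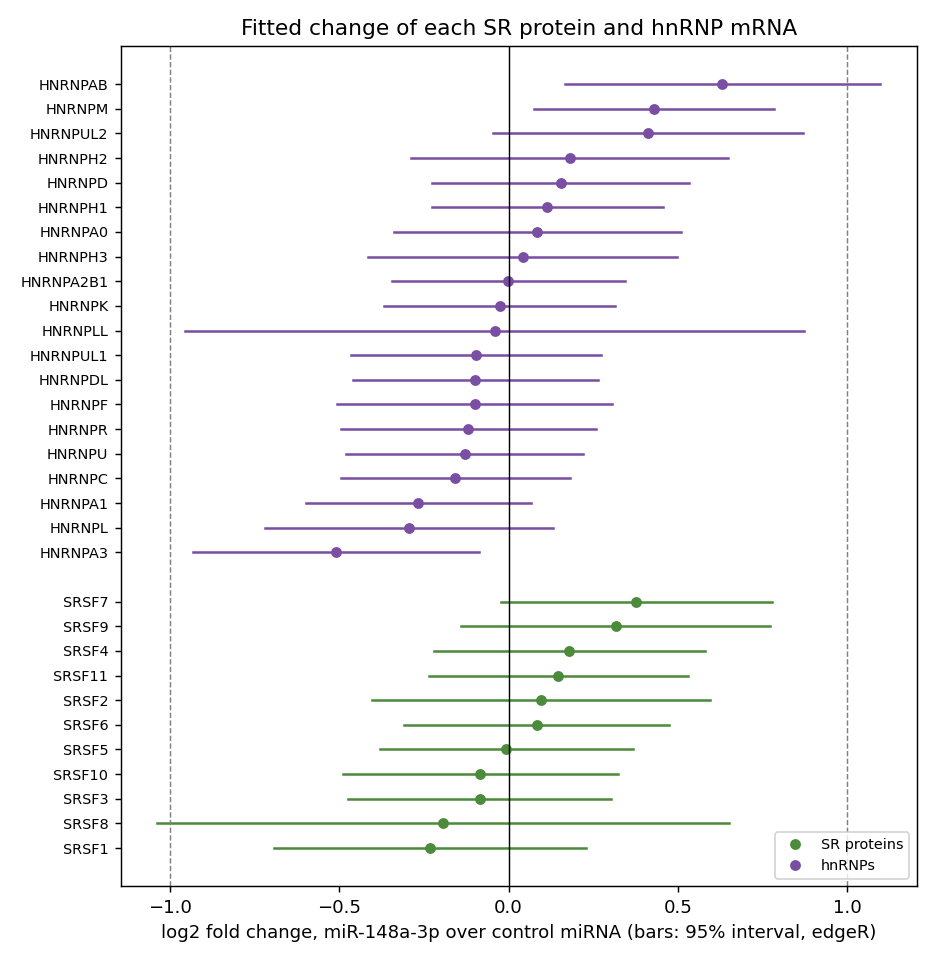
Log2 fold change, miR-148a-3p over control miRNA, for each member with its 95% interval from edgeR (3 libraries a group); hnRNPs are above, SR proteins below, and dashed lines mark a doubling and a halving. Intervals exclude 0 only for HNRNPAB, HNRNPM and HNRNPA3, and none of the 3 passed after adjustment.

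HNRNPAB, an RRM protein related to HNRNPD (chromosome 5, 178204533 to 178211163), had the largest fitted change. It was counted at 139.7, 201 and 189 CPM at baseline and at 167, 319 and 342 CPM with miR-148a-3p. Of the 3 miR-148a-3p libraries 2 stood above every control library, and replicate 1 lay within the control range. The fitted log2 value was 0.63 (SE 0.23, edgeR adjusted p = 0.576). Leaving out replicate 1 of the miR-148a-3p group gave 0.91 (edgeR adjusted p = 0.121), and leaving out replicate 3 gave 0.45 (0.998).

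HNRNPM, which binds GU-rich RNA and is known for splicing switches in epithelial and mesenchymal cells (chromosome 19, 8444975 to 8489114), had 466, 506 and 473 CPM in the control libraries. With miR-148a-3p it had 535, 702 and 716 CPM, all above the controls. On the log2 scale the difference was 0.43 (SE 0.17, edgeR adjusted p = 0.647), and it stayed between 0.36 and 0.56 with 1 library left out.

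HNRNPA3, a relative of HNRNPA1 (chromosome 2, 177212794 to 177223959), had 161, 201 and 268 CPM at baseline and 149, 149 and 143 CPM with miR-148a-3p. The miR-148a-3p libraries were nearly equal and all below the controls, which were widely spread. On the log2 scale the difference was −0.51 (SE 0.21, edgeR adjusted p = 0.652). Without control replicate 3 it was −0.29 (adjusted p = 0.879), and without control replicate 1 it was −0.67 (adjusted p = 0.125).

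The groups did not overlap for 4 of the 31 members (12.9%), against 12.8% of all genes tested and 15.6% of those at 100 CPM or more. The share was thus near that of all genes and below that of genes at such levels. With miR-148a-3p 1 was higher (HNRNPM), against 6.22% of all genes, and 3 were lower (HNRNPA3, HNRNPA1 and HNRNPL), against 6.59%. Of the 2168 genes at 100 CPM or more, 128 were higher and 210 lower. HNRNPA1 (chromosome 12, 54280726 to 54287087) had 639, 622 and 665 CPM with miR-148a-3p, below its lowest control library at 734 CPM. On the log2 scale it differed by −0.27 (SE 0.16, 95% interval −0.60 to 0.07, edgeR adjusted p = 0.772). HNRNPL, named after its values were seen, had 139.7, 141 and 202 CPM and then 133, 125 and 135 CPM, with 2 control libraries close to the other group (−0.29, SE 0.21, edgeR adjusted p = 0.807). Without control replicate 3 the value for HNRNPL was −0.09.

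The most abundant hnRNPs other than HNRNPA1 had overlapping groups. HNRNPC had 1536, 1200 and 1241 CPM with miR-148a-3p (log2 fold change −0.16, SE 0.17). HNRNPA2B1 had 668, 663 and 813 CPM, with a mean 1.00 times that of the control (95% interval of the log2 fold change −0.34 to 0.34). HNRNPK had 705, 652 and 709.6 CPM (−0.03, SE 0.17). HNRNPU had 620.2, 768 and 555 CPM (−0.13, SE 0.17), with 2 libraries below all controls and 1 just above the highest control. It ran from −0.27 without miR-148a-3p replicate 2 to −0.03 without replicate 3 of that group.

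HNRNPUL2, a relative of HNRNPU (chromosome 11, 62712630 to 62727457), had 86.7, 161 and 123 CPM at baseline and 143, 162 and 189 CPM with miR-148a-3p. The groups overlapped, with a fitted log2 value of 0.41 (SE 0.22, edgeR adjusted p = 0.726), which was 0.20 without control replicate 1 and 0.65 without control replicate 2. Reads of the overlapping readthrough gene HNRNPUL2-BSCL2 had a lower mean with miR-148a-3p, at 94.4, 81.7 and 64.8 CPM and then 58.7, 82.8 and 54.3 CPM. With these reads added, an alternative chosen after the data were seen, the value for HNRNPUL2 was 0.17 (SE 0.19, edgeR adjusted p = 0.903). The 10 hnRNPs not given singly for this comparison had log2 fold changes from −0.12 (HNRNPR) to 0.18 (HNRNPH2), and their groups overlapped.

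Among SR proteins with 1 RRM, SRSF7 had the fitted value farthest from 0. SRSF7, the SR protein with a zinc knuckle (chromosome 2, 38743599 to 38751494), had 145, 221 and 182 CPM at baseline and 216, 251 and 245 CPM with miR-148a-3p. Control replicate 2 lay just above the lowest miR-148a-3p library. The fitted log2 value was 0.38 (SE 0.20, 95% interval −0.02 to 0.78, edgeR adjusted p = 0.726), and 0.23 without control replicate 1. SRSF11 had 869, 541 and 741 CPM with miR-148a-3p, so both groups were widely spread (0.15, SE 0.19). With 1 library left out, SRSF11 ran from −0.02 without miR-148a-3p replicate 1 to 0.31 without replicate 2 of that group. SRSF3 had 235, 276 and 245 CPM (−0.09, SE 0.19), and SRSF10 had 171, 194 and 183 CPM (−0.08, SE 0.20).

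SR proteins with 2 RRMs had fitted values on both sides of 0. SRSF9 (chromosome 12, 120461672 to 120469748) had 120.4, 214 and 200.2 CPM at baseline and 181, 289 and 194 CPM with miR-148a-3p, with replicate 1 lowest in both groups. On the log2 scale it differed by 0.32 (SE 0.22, edgeR adjusted p = 0.807), by 0.08 when the second miR-148a-3p library was left out and by 0.09 when the first control library was. SRSF4 went from 166, 162 and 134 CPM to 163, 172 and 191 CPM (0.18, SE 0.20). SRSF1, the founding SR protein and a known oncogene (chromosome 17, 57989038 to 58007246), had 118, 149 and 156 CPM and then 99.5, 162 and 98.8 CPM. Of its miR-148a-3p libraries 2 were below all controls and 1 was above (−0.23, SE 0.23, edgeR adjusted p = 0.886). With 1 library left out, SRSF1 ran from −0.50 without miR-148a-3p replicate 2 to −0.10 without replicate 1 of that group.

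The other SR proteins had overlapping groups. In the miR-148a-3p group SRSF5 had 241, 228 and 267 CPM (−0.01 on the log2 scale, 95% interval −0.38 to 0.37). SRSF6 had 191, 233 and 206 CPM (0.08, SE 0.19). SRSF2 was at 0.10 (SE 0.24), with 107 to 172 CPM. SRSF8 was at −0.19 with an SE of 0.41, from −0.60 to 0.12 with 1 library left out, and its 5 reads in miR-148a-3p replicate 3 show how little its depth can resolve.

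Summed over each family, the SR total was slightly higher with miR-148a-3p and the hnRNP total was not. The SR proteins summed to 2506, 2541 and 2540 CPM with miR-148a-3p, 2529 ± 20.1 CPM against 2371 ± 79.9 CPM (SD, n = 3), 1.07 times the control, and the groups did not overlap. The hnRNPs summed to 7613, 8074 and 8044 CPM, 7910 ± 258 CPM against 8032 ± 284 CPM, with overlapping groups. The hnRNP total was 3.04, 3.18 and 3.17 times the SR total with miR-148a-3p and 3.28, 3.38 and 3.50 times at baseline, so each ratio lay below every control ratio.

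Leaving out the most abundant member of each family, SRSF11 and HNRNPC together, kept the direction of the mean SR total and of the mean ratio. It did not keep the separation of the groups. In that alternative, chosen after the data were seen, the mean SR total was 1722 CPM at baseline and 1812 CPM with miR-148a-3p, and the mean ratio 3.81 and 3.64. By library the ratio was 3.84, 3.73 and 3.85 at baseline and 3.71, 3.44 and 3.78 with miR-148a-3p, and the groups overlapped. The SR totals then overlapped as well, from 1574 to 1853 CPM against 1637 to 2001 CPM. The hnRNP totals were 6049, 6916 and 6693 CPM at baseline and 6077, 6874 and 6803 CPM with miR-148a-3p. Their mean was thus slightly higher with miR-148a-3p, where the mean of the full family was lower, and the groups overlapped. No p is given for these sums, and 3 libraries against 3 cannot reach an exact two-sided p below 0.1.

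**Figure D3:**
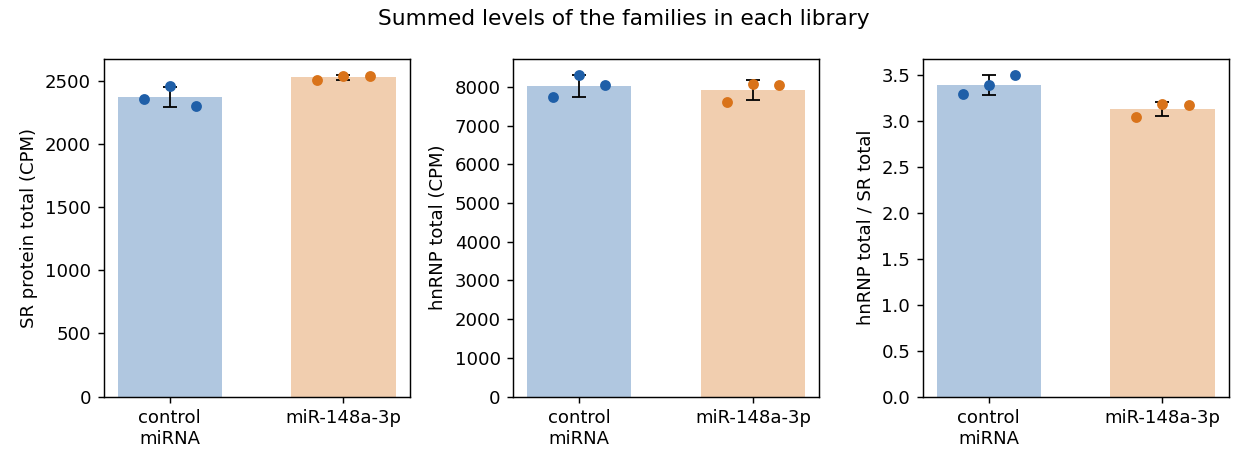
Summed level of the 11 SR proteins, of the 20 hnRNPs, and the ratio of the sums in each library; bars are group means, error bars the SD over 3 libraries and points the libraries. SR totals run from 2298 to 2456 CPM with the control and from 2506 to 2541 CPM with miR-148a-3p, while the hnRNP totals overlap.

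By structure, only the hnRNP A sum and HNRNPM, the gene given above, had groups that did not overlap. No test was made of these sums. The hnRNP A genes (A0, A1, A2B1 and A3) summed to 1845 ± 80.6 CPM (SD, n = 3) at baseline and to 1661 ± 78.8 CPM after miR-148a-3p, a ratio of 0.900. The lowest control and the highest miR-148a-3p sum were both 1752 CPM when rounded, with no overlap. The lower sum came from HNRNPA1 (mean 772 CPM, then 642 CPM) and HNRNPA3 (210 CPM, then 147 CPM). The means of HNRNPA2B1 (714 and 715 CPM) and HNRNPA0 (149 and 157 CPM) were not lower. The hnRNP D genes (HNRNPD, HNRNPDL and HNRNPAB) summed to 958 ± 156 and 1068 ± 162 CPM, and the F and H genes to 981 ± 114 and 1022 ± 59.98 CPM, both with overlapping libraries. The U genes summed to 1090.2 ± 28.5 and 1054 ± 99.7 CPM, also with overlap. SR proteins with 1 RRM, SRSF11 among them, had a ratio of 1.07 and those with 2 RRMs 1.06, and the groups overlapped in both.

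**Figure D4:**
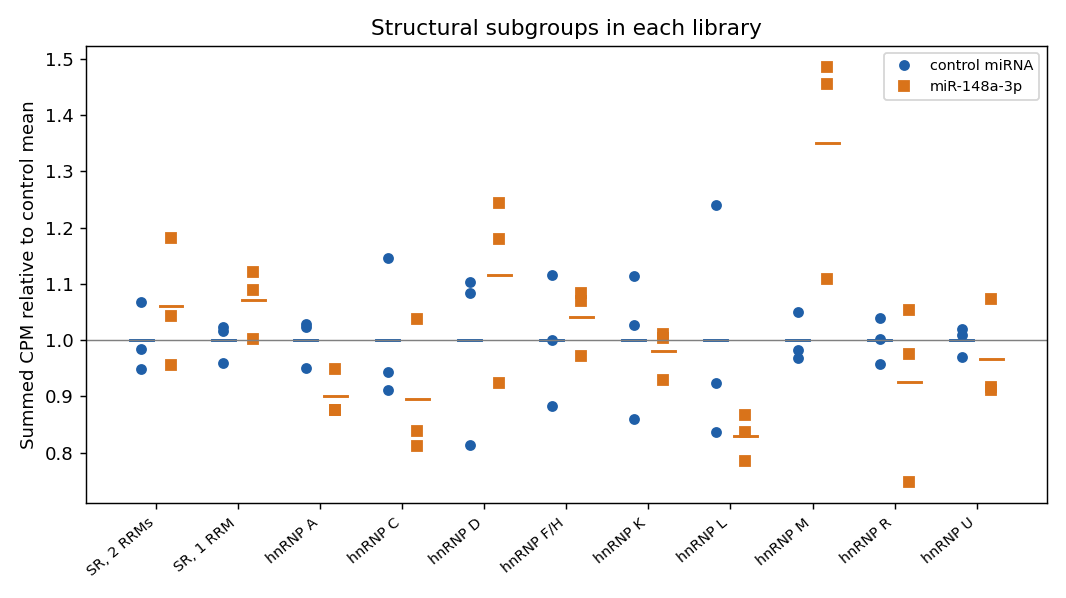
Summed CPM of each structural subgroup in each library, divided by the subgroup's control mean; circles are control libraries, squares miR-148a-3p libraries and short bars the group means. HNRNPM stands highest at 1.35 times its control mean, hnRNP L genes lowest at 0.829, and in most subgroups the groups overlap.

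The proteins that modify and move the families gave no call either. Of 20 SR-related proteins, SR kinases, phosphatases and the SR importer, all tested, 8 were above and 12 below 0 (median −0.08). With edgeR 0 passed, and 1 had an unadjusted p below 0.05 (5%, against 6.79% of all genes tested). That gene, SRRM2, a large scaffold of nuclear speckles, had 598, 488 and 523 CPM in the control and 425, 399.9 and 389 CPM with miR-148a-3p, below all controls (−0.41, SE 0.17, edgeR adjusted p = 0.681). PPP1CC, a catalytic subunit of protein phosphatase 1, was at −0.42 (SE 0.22) and PNN, a speckle and exon junction protein, at 0.29 (SE 0.19).

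Proteins counted among hnRNPs under other symbols, with their importers, had a median near 0, with single genes from −0.29 to 0.79. Of 23 listed 22 were tested, 13 were above and 9 below 0 (median 0.07), and 0 passed with edgeR, with 0 at an unadjusted p below 0.05. RBMX, the hnRNP G gene of the X chromosome, had 80.9, 78.2 and 56.9 CPM and then 91.6, 98.2 and 112 CPM, with no overlap (0.47, SE 0.24). SYNCRIP, hnRNP Q, had 478, 505 and 495 CPM and then 425, 356 and 458 CPM, lower and also with no overlap (−0.26, SE 0.17). Groups did not overlap for 9.09% of the 22 genes, against 12.8% of all genes tested. MATR3, a nuclear matrix protein, was at −0.27 (SE 0.18).

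Most core spliceosome genes had fitted values above 0. Of 28 genes of the U1 and U2 particles and splice site recognition 27 were tested, 21 were above and 6 below 0 (median 0.28; 49.5% of all genes tested were above 0), and 0 passed with edgeR. An unadjusted p below 0.05 was reached by 7 above 0 and 1 below (29.6%, against 6.79% of all genes tested and 9.18% of those at 100 CPM or more). DESeq2 gave 3 and 0, and limma-voom 5 and 0. SNRPD2, a protein of the Sm ring, had 181, 231 and 235 CPM and then 269, 321 and 380.3 CPM, with no overlap (0.58, SE 0.19, edgeR adjusted p = 0.494). SNRPB, of the same ring, had 161, 375 and 359 CPM and then 389.5, 477 and 555 CPM (0.67, SE 0.23, edgeR adjusted p = 0.510). Control replicate 1 was far below the other controls for SNRPB, and without it 17 of 27 genes were above 0 with a median of 0.18, and 4 of those above 0 had an unadjusted p below 0.05. Without miR-148a-3p replicate 3 that number was 2. For the fits with a library left out the share of all genes is not given here.

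SNRPG, also of the Sm ring, had a fitted value below 0, with 45.3, 153 and 247 CPM in the control and 59.3, 74.5 and 88.9 CPM with miR-148a-3p. The control libraries of SNRPG were spread from 45.3 to 247 CPM and the groups overlapped (−1.01, SE 0.34, edgeR adjusted p = 0.504). It passed without control replicate 1 (−1.47, edgeR adjusted p = 3.73e-05) and without the count filter (−1.02, adjusted p = 0.0209).

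Of 23 genes of the U4/U6.U5 particle and the catalytic complexes 16 were above and 7 below 0 (median 0.16). With edgeR 0 passed, and 1 had an unadjusted p below 0.05 (4.35%, against 6.79% of all genes tested). That gene, SART1, a tri-snRNP protein, rested on 6, 11 and 6 reads and then 32, 20 and 14 reads (1.41, SE 0.50, edgeR adjusted p = 0.542). EFTUD2, the GTPase of the U5 particle, was at 0.46 (SE 0.26) and SNRNP200, its helicase, at 0.36 (SE 0.19). Other splicing factors had 5 of 14 tested above 0 (median −0.06; QKI −0.45, SE 0.24; RBM5 −0.37, SE 0.25; RBFOX2 −0.23, SE 0.19). Nonsense-mediated decay factors had 5 of 13 above 0 (median −0.09; MAGOH 0.48, SE 0.23; EIF4A3 −0.25, SE 0.22; CASC3 0.26, SE 0.23). In both lists 0 passed with edgeR and 0 had an unadjusted p below 0.05.

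A list of nuclear body genes, which also held the noncoding RNAs SNHG1, GAS5, SNHG5 and SNHG8, gave 5 of 10 above 0 (median −0.03). With edgeR 0 passed, and 3 had an unadjusted p below 0.05, 1 above 0 and 2 below. That was 30% of the list, against 6.79% of all genes tested and 9.18% of those at 100 CPM or more. MALAT1, the noncoding RNA of nuclear speckles, ranked 1 among all genes tested by control CPM. It had 17970.1, 16073 and 13067 CPM and then 14202, 9334 and 10535 CPM, with overlapping groups (−0.47, SE 0.17, edgeR adjusted p = 0.563). NEAT1, a noncoding RNA gene of paraspeckles, was at −0.51 (SE 0.23), from counts per gene symbol that do not separate its transcripts. NONO, a paraspeckle protein, had 308, 305 and 296 CPM and then 384, 456 and 364 CPM, with no overlap (0.41, SE 0.18, edgeR adjusted p = 0.681).

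Reads of some members may be shared with other genes, because the use of strand in counting is not given in the sources used here. Reads of GATC amounted to 33.6% of those of SRSF9, reads of RUFY2 to 36.1% of those of HNRNPH3, and reads of HNRNPUL2-BSCL2 to 51.8% of those of HNRNPUL2, all with overlapping RefSeq spans. MFSD11 had 14.6% of the reads of SRSF2, and MECR 13% of those of SRSF4. Pseudogene reads were few: RefSeq names 75 pseudogenes of HNRNPA1, and those with reads summed to 13 against 4049 for the gene, while for HNRNPC it was 91 against 8238 reads. Adding them to their genes moved the log2 fold change of HNRNPA3 from −0.51 to −0.52, left that of HNRNPA1 at −0.27, and called 0 members.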

How the data were processed

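All 6 poly(A) 3' end mRNA libraries were used; a small RNA library of wild-type cells was not analysed here. The authors deposited raw counts of reads per gene symbol; a gene missing from a library's list was set to 0. The tools cutadapt, STAR and Bowtie2 and the build GRCh38 are named, per the submitters' processing notes. Which annotation and counter were used, with which strand setting, and all version numbers were not given in the sources used here. Of 15659 symbols, 15486 matched a current symbol in the name tables, and all 31 members matched RefSeq.

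Counts were fitted over the whole table with edgeR 4.0.16 in R 4.3.3 (TMM, filterByExpr, 8921 genes kept, quasi-likelihood F test, group as the only term), with Benjamini-Hochberg adjustment over all genes tested and a threshold of 0.05. Intervals are log2 fold change ± the t quantile times the SE. Alternatives used DESeq2 1.42.0, limma-voom (limma 3.58.1), other size factors and filters, a replicate block, and left-out libraries. The script was tested on simulated data. The members and gene lists were chosen with earlier results of these data known. Values per library are given for the 5 most abundant members of each family, the 4 with the smallest p in each, and every member with an unadjusted p below 0.05; each related list gives its 3 genes with the smallest p. Whether replicates came from separate cultures is not stated, so a p-value reflects the variation among these 6 libraries, which may be technical. No 2 libraries of a group matched within sampling noise: chi-square over its degrees of freedom was 2.52 to 5.30 for genes with at least 10 reads. In bulk RNA, fewer transcripts per cell and fewer cells holding them cannot be told apart. Intervals are for the fitted difference between the groups and rest on the variation among these libraries alone. No protein sequences were used here.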

Additional observations from a re-analysis of the deposited data

How the results depend on the processing

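The count of members past the threshold was 0 under every one of the 17 alternatives run, and the smallest adjusted p of any member was 0.121. The number of genes called over the whole table was 1 in the fit reported. It was 2 with library totals only, 18 without the count filter, 2 with DESeq2, 3 with limma-voom and 5 after thinning to the smallest library, and it ran from 1 to 26 with 1 library left out, the highest without control replicate 1. Of the 31 members, 18 kept the sign of their log2 fold change throughout and 13, none of them called, changed it under at least 1 alternative. With 1 library left out, the median log2 fold change ran from 0.0018 to 0.10 for SR proteins and from −0.06 to 0.05 for hnRNPs, above 0 for the hnRNPs without control replicate 2. Without the most abundant member of each family the SR totals were 1722 CPM (control) and 1812 CPM, the hnRNP totals 6553 and 6585 CPM, and the ratios 3.81 and 3.64. The SR total with miR-148a-3p was 2508 CPM without members under 50 CPM, and ran from 2501 to 2535 CPM with 1 library left out. Thinning, adding readthrough reads and leaving out SRSF11 and HNRNPC were chosen after seeing the data.

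Replicate numbers are shared between groups, but nothing says that they mark a shared culture, and deviations from the group means correlated at 0.13, 0.093 and −0.0018 for numbers 1, 2 and 3. Control libraries 1 and 2 correlated best with their own number, and library 3 did not. With the replicate block 3 genes were called over the whole table and 0 members, and 5 members had an unadjusted p below 0.05 in place of 3. With 1 library left out the number of members ran from 1 to 5. The share of all genes at that p in these fits is not given here. Depth limits SRSF8 and HNRNPLL, with as few as 5 reads in a library.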
